A study of Lachancea kluyveri with 31 samples.

Results

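In *Lachancea kluyveri*, 46 of the 5283 genes measured had a lower signal at low iron than at high iron both in wild-type (WT) cells and in cells without *AFT1*, the ortholog of the gene for the transcription factor that turns on iron uptake in *Saccharomyces cerevisiae*. The genes were chosen on the authors' log2 values, with the brighter of a gene's probes. The choice required that the mean at low iron lay at least 1.5-fold below the mean at high iron in WT, and more than 0.2 below it on the log2 scale in *aft1*Δ. Of the genes that met both conditions, 49 in all, *ATG10*, *SDH1*, and *LYS9* were left out by the same rule. A further 58 genes passed the WT threshold only. The falls in WT and *aft1*Δ are therefore how the genes were picked and not a result, and the measurements that the choice did not use are those of the *sef1*Δ and *sef1*Δ*aft1*Δ strains.

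RNA of 4 *ura3* strains was hybridized to custom one-color Agilent arrays, with 1 array for each biological replicate. The strains were WT (JYL1897, MATa), *sef1*Δ, which lacks the zinc-cluster transcription factor gene *SEF1*, *aft1*Δ, and *sef1*Δ*aft1*Δ, a double mutant made from the *sef1*Δ strain, and each mutant was represented by a single strain. Overnight YPD cultures (28°C) were brought to an OD600 of 0.5 per ml and kept for 5.5 h at 30°C, in YPD with 400 µM ferrous ammonium sulfate (high iron) or in YPD with 200 µM BPS, a chelator of ferrous iron (low iron). These doses follow the text of the study, and the labels of the samples have mM in place of µM. Each of the 8 groups held 4 arrays, except *sef1*Δ at high iron, which held 3, for a total of 31. Each strain lay on 1 slide, high-iron arrays in one row and low-iron arrays in the other, so the row of the slide and the iron level cannot be told apart.

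Iron is a cofactor of the respiratory chain, of iron-sulfur enzymes, and of heme enzymes such as catalase and cytochrome c peroxidase. In *S. cerevisiae*, iron-starved cells raise iron uptake through Aft1 and lower the transcripts of many iron-using proteins, a part of which is mRNA decay promoted by Cth1 and Cth2. The same species uses Yap5 at high iron to raise *CCC1*, which moves iron into the vacuole, and *GRX4*, whose product restrains Aft1. Gene names used here are those of the orthologs listed in the tables of the study, and the roles are those known in *S. cerevisiae*. Names were found for 36 of the 46 genes, while 10 carry a systematic name only, in which the letter after the 0 gives the chromosome.

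The values below are normalized signals, that is, the log2 of the spot intensity minus the 75th percentile of its array. A value of 0 is thus a gene as bright as that percentile, and a difference of 1 is a 2-fold change. Since the signal is relative to the array, a change in total RNA per cell cannot be seen, and fewer cells that express a gene cannot be told apart from less RNA per cell. The 75th percentile was 10424 to 23244 intensity units, 97.8% to 99.7% of probes were well above background on each array, and no spot was saturated. The probe of *SEF1* read −2.19 to −1.93 in WT and *aft1*Δ and −7.62 to −6.20 in both strains without the gene. The *AFT1* probe read −2.23 to −2.10 at high iron and −0.98 to −0.73 at low iron in WT, and −5.24 to −4.25 in *aft1*Δ. It read −2.78 to −2.60 at high iron and −1.12 to −0.56 at low iron in *sef1*Δ, against −3.53 to −2.96 and −3.86 to −3.03 in *sef1*Δ*aft1*Δ. The signal of *AFT1* was lower in the double mutant than in *sef1*Δ at low iron (−2.64, limma adjusted p = 1.78e-13), but at high iron the difference was −0.55 (limma adjusted p = 0.025), under the 1.5-fold used for calls, and the *sef1*Δ*aft1*Δ arrays stayed above those of *aft1*Δ. As a check of the low-iron label, 6 genes of iron uptake and heme recycling, among them *FET3*, *SIT1*, and *FRE2*, had a median difference between low and high iron of 5.12 in WT and 5.26 in *sef1*Δ. It was −0.22 where *AFT1* alone was deleted and −0.15 where both were. A gene was called lower or higher where limma gave an adjusted p (Benjamini-Hochberg, over all genes) no larger than 0.05 and the change was 1.5-fold or more.

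The choice of the genes can be described by how far they lay past the thresholds. The smallest WT falls among the 46 were those of SAKL0D10164g (−0.5924), the fatty acid elongase gene *FEN1* (−0.5925), and SAKL0B00748g (−0.6016). Just outside were *OPT2* (−0.5846), SAKL0F11594g (−0.5844), and SAKL0E13178g (−0.5843). On the *aft1*Δ side, the putative sulfate permease gene *YPR003C* (−0.201), *MAM1* (−0.2227), and *GDT1* (−0.2235) were the nearest inside, and *MPO1* (−0.1796), *ERG11* (−0.1784), and *LYS21* (−0.1721) the nearest outside. In the fit used below, the median difference of the 46 genes was −0.79 in WT and −0.50 in *aft1*Δ, against −0.01 and 0.02 over all genes. In WT 43 of the 46 passed the calling threshold, where 1.89% of all genes were called lower, and in *aft1*Δ 18 did, where 1.84% were. Nothing is read from these counts, because the choice used the same contrasts.

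The main question was whether the genes also fell where *SEF1* was missing, and whether they still fell where neither *SEF1* nor *AFT1* was present. In *sef1*Δ, 27 of the 46 genes were called lower at low iron, against a background of 2.54% of all genes, and the glycerol-3-phosphatase gene *GPP1* was called higher (background 3.20%). In *sef1*Δ*aft1*Δ, 26 were called lower (background 7.48%), and the flavohemoglobin gene *YHB1* was called higher (background 7.04%). In both strains 19 genes were called lower (background 0.965%). Of these, 16 were among the 18 genes that were also called lower in *aft1*Δ. Over all genes, 97 were called lower in *aft1*Δ, and 30 of those were called lower in both strains. A negative difference was found for 43 of the 46 in *sef1*Δ and 42 in *sef1*Δ*aft1*Δ, against 2672 and 2975 of all 5283 genes. The median difference was −0.73 in *sef1*Δ and −0.73 in *sef1*Δ*aft1*Δ, against 0.00 and −0.06 over all genes. For 33 genes every low-iron array lay below every high-iron array in *sef1*Δ (background 15.5%), and for 25 genes this was so in *sef1*Δ*aft1*Δ (background 18.7%).

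**Figure D1:**
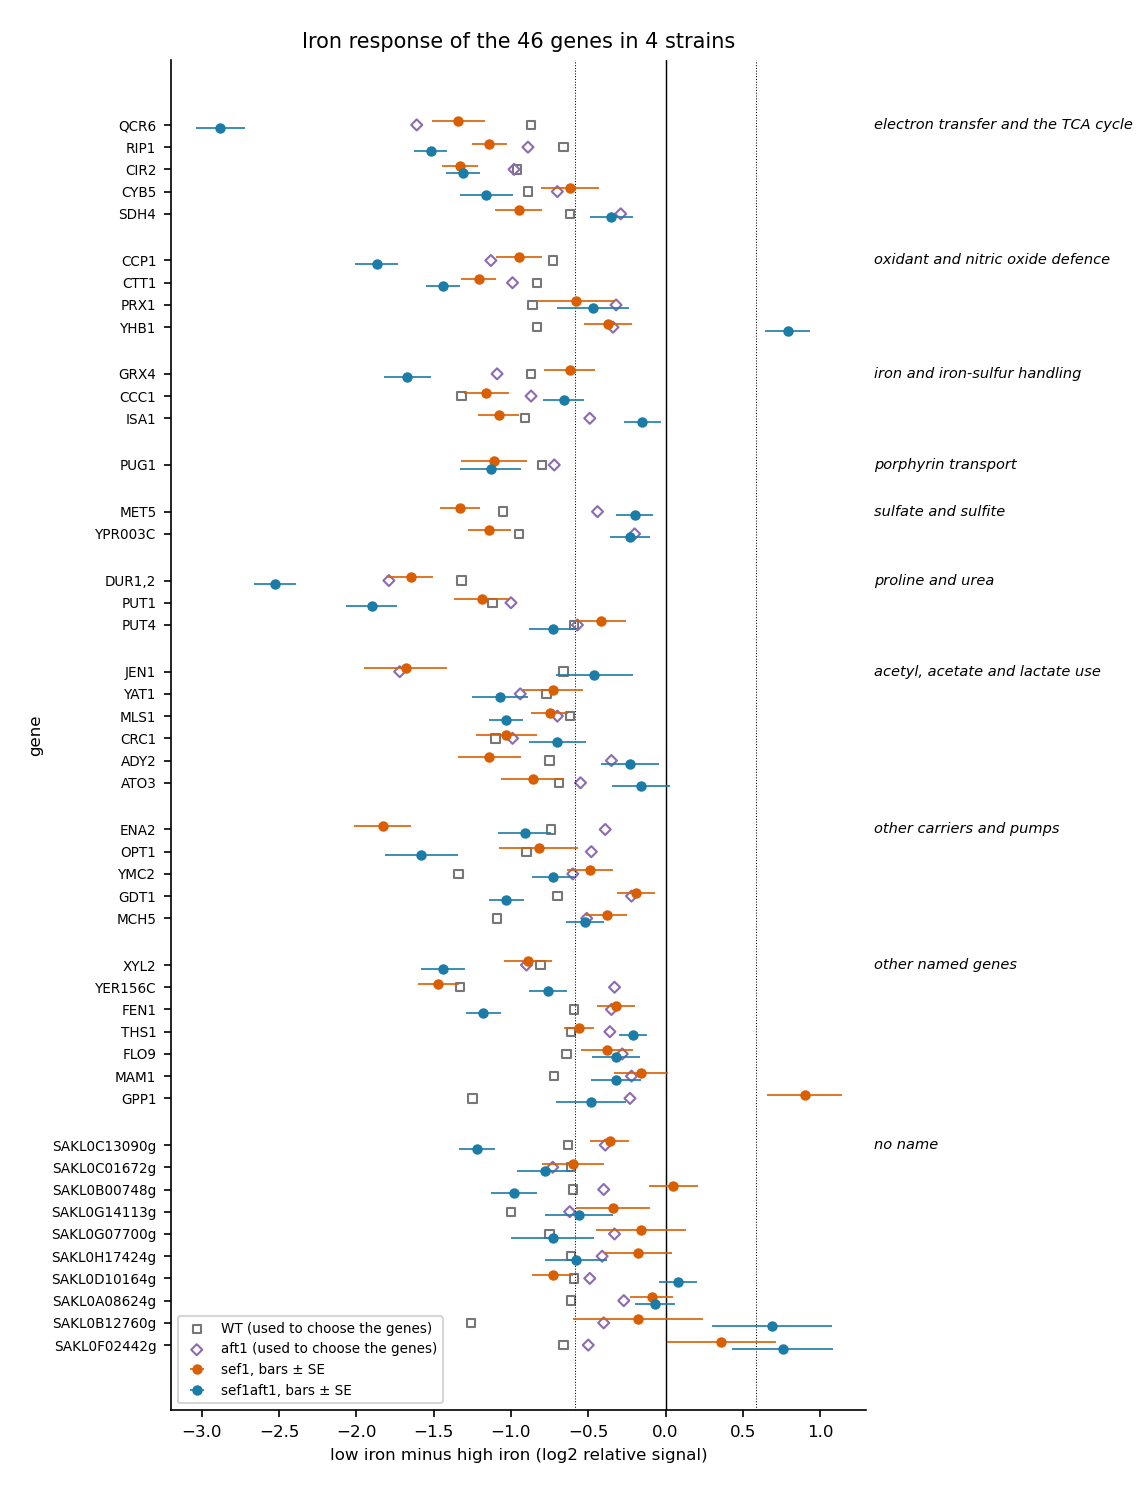
Difference between low and high iron (log2 normalized signal, horizontal axis) of the 46 genes, grouped by role, in *sef1*Δ and *sef1*Δ*aft1*Δ (filled points, bars ± SE of the fit) and in WT and *aft1*Δ (open symbols, which chose the genes). Dotted lines mark a 1.5-fold change. Left of 0 lie 43 of the 46 genes in *sef1*Δ and 42 in *sef1*Δ*aft1*Δ, against 2672 and 2975 of all 5283 genes.

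The 58 genes past the WT threshold only are those that did not fall by more than 0.2 in *aft1*Δ, where their median difference was 0.08. In *sef1*Δ, 19 of the 58 were called lower (background 2.54%), with a median of −0.37. In *sef1*Δ*aft1*Δ, 2 of them were called lower, namely *RCF2* and *YHM2* (background 7.48%), 16 were called higher (background 7.04%), and the median was 0.20. None of the 58 was called lower in both strains, whether by limma, by limma at an unadjusted p under 0.05, or by the per-gene unpaired test of the methods with or without adjustment. The limma share over all genes was 0.965%. A count of none among 58 genes is near that share, so nothing about the 58 is read from it. Of the 58, 5 were called lower in *sef1*Δ and higher in *sef1*Δ*aft1*Δ (*LEU1*, *ILV3*, *GLT1*, *LEU9*, and *SPO23*, named after their values were seen), while none of the 46 was and 9 of all 5283 genes were. The 46 genes and these 58 are described side by side, and the difference between the sets was not tested.

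**Figure D2:**
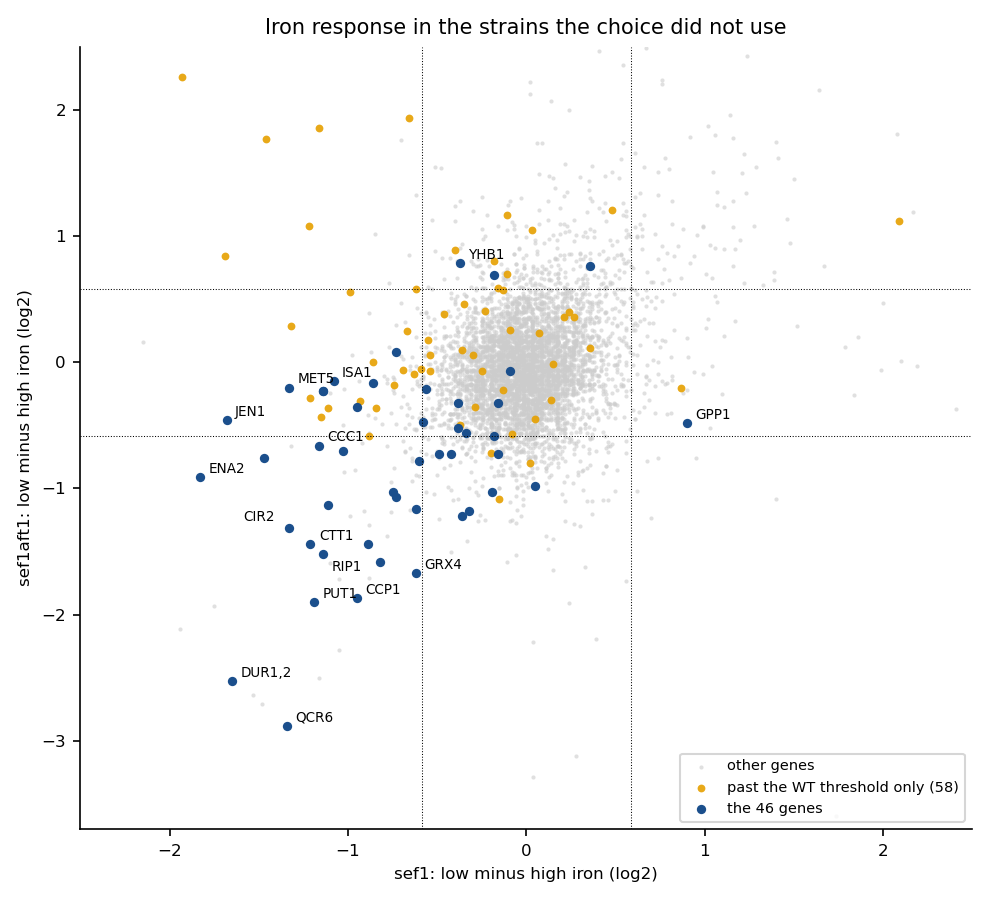
Difference between low and high iron (log2) in *sef1*Δ (horizontal axis) and *sef1*Δ*aft1*Δ (vertical axis) for every gene, with the 46 genes in blue, the 58 genes past the WT threshold only in orange, and all others in grey. Dotted lines mark a 1.5-fold change, 21 genes outside the axes are not drawn and none of these is among the 46, and the 19 of the 46 genes called lower in both strains lie in the lower left.

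Of the 46 genes, 5 have roles in electron transfer and the TCA cycle. All 5 were called lower in *sef1*Δ (background 2.54%) and 4 of them in *sef1*Δ*aft1*Δ (background 7.48%). Genes of these pathways outside the 46 are not in this count. *QCR6* (SAKL0F07370g, chromosome F) encodes a subunit of complex III, the cytochrome bc1 complex. Its signal was −0.19, −0.60, −0.22 and −0.36 on the WT arrays at high iron and −1.02, −1.25, −1.35 and −1.24 at low iron, and 0.30, −0.01, 0.03 and 0.09 against −1.63, −1.27, −1.65 and −1.49 in *aft1*Δ. In *sef1*Δ it was −0.29, −0.52 and −0.29 against −1.35, −2.00, −1.65 and −1.85. The *sef1*Δ*aft1*Δ arrays read 0.98, 0.34, 0.44 and 0.71 against −2.23, −2.48, −2.62 and −1.71, the largest fall among the 46 genes, with no overlap between iron levels in any strain. The falls were 2.54-fold in *sef1*Δ (−1.34 ± 0.171 SE, limma adjusted p = 8.26e-07) and 7.34-fold in *sef1*Δ*aft1*Δ (−2.88 ± 0.158, limma adjusted p = 1.1e-14).

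*RIP1* (SAKL0D11242g, chromosome D), which encodes the Rieske iron-sulfur protein of the same complex, read 0.51 to 0.74 in WT at high iron and −0.18 to 0.25 at low iron, and 0.41 to 0.63 against −0.58 to −0.02 in *aft1*Δ. The *sef1*Δ arrays read 1.02, 0.84 and 0.96 at high iron and −0.16, −0.34, −0.20 and −0.09 at low iron, and the *sef1*Δ*aft1*Δ arrays read 1.59, 1.49, 1.45 and 1.52 against 0.03, −0.21, −0.05 and 0.18. Iron levels did not overlap in any strain. The falls were −1.14 ± 0.115 (SE, limma adjusted p = 9.36e-09) and −1.52 ± 0.107 (limma adjusted p = 1.73e-12). *CIR2* (SAKL0D14190g, chromosome D) encodes an iron-sulfur flavoprotein that passes electrons from fatty acid and amino acid oxidation to ubiquinone. It read −0.35, −0.48 and −0.40 against −1.64, −1.83, −1.75 and −1.73 in *sef1*Δ and −0.10, −0.41, −0.36 and −0.41 against −1.66, −1.81, −1.86 and −1.19 in *sef1*Δ*aft1*Δ, and WT read −0.27 to −0.08 against −1.39 to −1.02 and *aft1*Δ −0.59 to −0.40 against −1.53 to −1.35. Its falls of −1.33 ± 0.117 and −1.31 ± 0.108 (SE, limma adjusted p = 6.33e-10 and 6.16e-11) differed by 0.02 ± 0.159 (limma adjusted p = 0.943).

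The cytochrome b5 gene *CYB5* fell in both strains, with differences of −0.62 in *sef1*Δ and −1.16 in *sef1*Δ*aft1*Δ (limma adjusted p = 0.0224 and 3.61e-06). Its call in *sef1*Δ was lost without high-iron replicate 1 (−0.59) or 3 (−0.55) or low-iron replicate 2 (−0.49). *SDH4*, which encodes a membrane anchor of succinate dehydrogenase, fell in *sef1*Δ (−0.95 ± 0.151, limma adjusted p = 3.08e-05), whereas its difference of −0.35 in *sef1*Δ*aft1*Δ stayed under the 1.5-fold threshold. The other measured genes of complex III and cytochrome c followed the same direction. All 8 named genes of that list were called lower in both strains, with medians of −0.96 in *sef1*Δ and −1.41 in *sef1*Δ*aft1*Δ. Only *QCR6* and *RIP1* of the 8 are among the 46, and the other 6 (*COR1*, *QCR2*, *QCR7*, *QCR8*, *CYT1*, and *CYC1*) had WT differences of −0.49 to −0.27, short of the WT threshold. Complexes II and IV gave 5 of 6 named genes lower in *sef1*Δ and 1 of 6, *COX13*, in *sef1*Δ*aft1*Δ. The gene lists hold only genes that the study's tables pair with a name, which is not a random sample of each pathway.

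The list of iron-sulfur enzymes holds 3 of the 46 genes (*RIP1*, *CIR2*, and *MET5*), which the choice required to fall in WT and *aft1*Δ. These 3 are therefore not compared with the rest of the list. Of 17 named genes, 14 were called lower in *sef1*Δ, with a median of −1.14. The double mutant had 3 lower (*RIP1*, *CIR2*, and the primase subunit gene *PRI2*) and 4 higher (*LEU1*, *ILV3*, *GLT1*, and *BIO2*), with a median of −0.12. The plot of related genes by list shows complex III and cytochrome c left of 0 in both strains, and the iron-sulfur enzymes on both sides of 0 in *sef1*Δ*aft1*Δ.

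**Figure D3:**
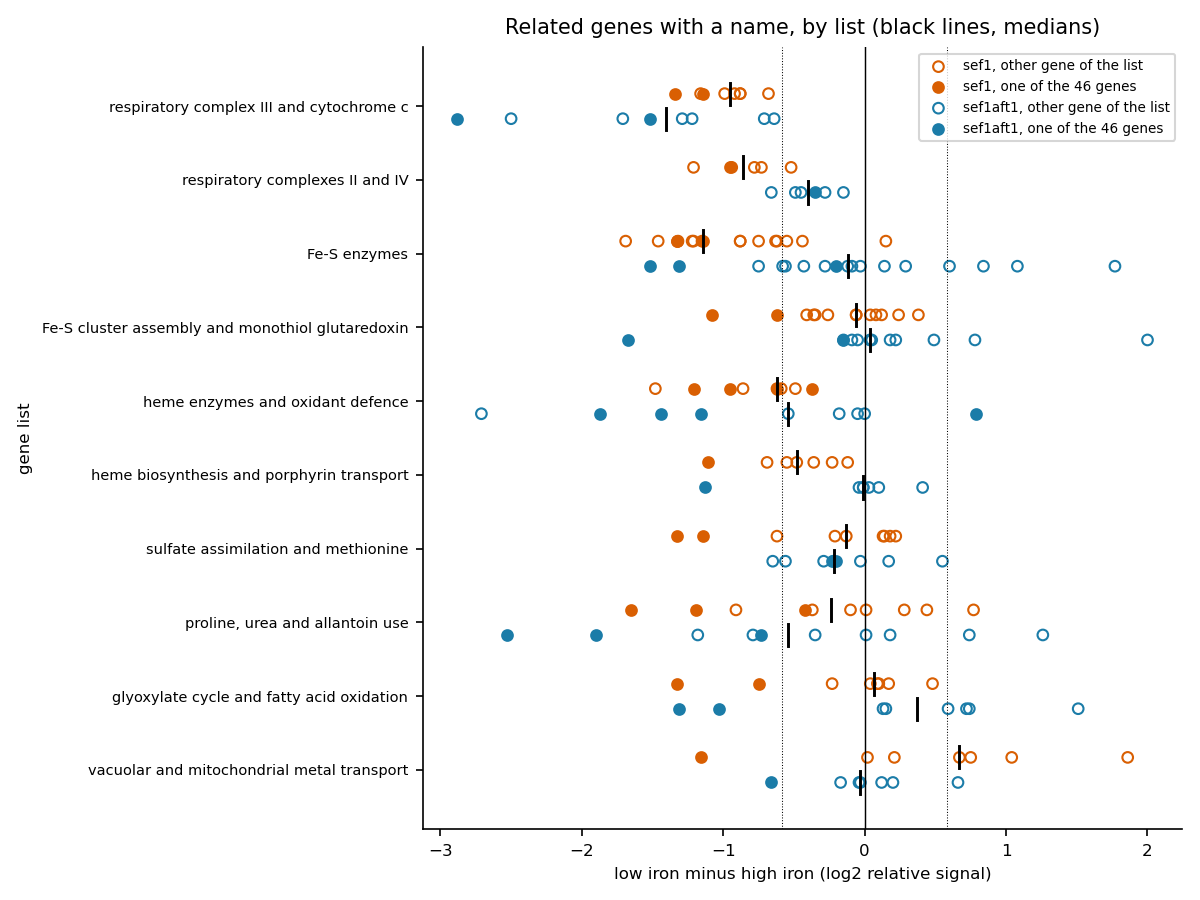
Difference between low and high iron (log2, horizontal axis) of named genes in 10 lists in *sef1*Δ (orange) and *sef1*Δ*aft1*Δ (blue), with the 46 genes as filled points, other genes of a list as open points, and list medians as black lines. Dotted lines mark a 1.5-fold change, and the medians of complex III and cytochrome c are −0.96 and −1.41.

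Among genes for oxidant and nitric oxide defense, the heme enzymes *CTT1* and *CCP1* fell in both strains. *CTT1* (SAKL0F05742g, chromosome F), encoding catalase T, was one of the brightest of the 46 genes, with 2.82, 2.50 and 2.43 against 1.47, 1.25, 1.34 and 1.43 in *sef1*Δ. The *sef1*Δ*aft1*Δ arrays read 2.82, 2.55, 2.64 and 2.75 at high iron and 1.14, 1.19 and 1.41 on the 3 low-iron arrays left after 1 marked spot was dropped. In WT it read 2.76 to 2.96 against 1.82 to 2.37, and in *aft1*Δ 2.03 to 2.18 against 1.06 to 1.22. These are falls of −1.21 ± 0.113 and −1.44 ± 0.113 (SE, limma adjusted p = 3.17e-09 and 3.16e-11), which differed by −0.23 ± 0.16.

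*CCP1* (SAKL0C05786g, chromosome C), encoding the mitochondrial cytochrome c peroxidase, read 1.29 to 1.72 against 0.63 to 1.04 in WT and 1.26 to 1.51 against 0.15 to 0.57 in *aft1*Δ. It read 1.25, 0.88 and 0.94 against 0.03, −0.07, −0.01 and 0.33 in *sef1*Δ and 1.09, 0.99, 1.11 and 1.45 against −0.85, −0.91, −0.83 and −0.26 in *sef1*Δ*aft1*Δ. The high-iron levels of *sef1*Δ and *sef1*Δ*aft1*Δ overlapped, and at low iron every array of the double mutant lay below every other array. The falls were −0.95 ± 0.149 and −1.87 ± 0.138 (SE, limma adjusted p = 2.32e-05 and 4.8e-12). The mitochondrial peroxiredoxin gene *PRX1*, whose product uses no iron, had differences of −0.58 and −0.47 and was called in neither strain. Of 9 measured heme enzyme genes, 7 were lower in *sef1*Δ, while in *sef1*Δ*aft1*Δ 4 were lower (*CTT1*, *CCP1*, *CYB5*, and SAKL0G16852g, 1 of the *CYB2* genes for lactate dehydrogenase, at −2.71) and *YHB1* was higher.

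*YHB1* (SAKL0G15642g, chromosome G) encodes flavohemoglobin, which detoxifies nitric oxide, and it went the other way in the double mutant. It read 0.79, 0.71, 0.81 and 0.55 in WT at high iron and −0.22, −0.32, 0.10 and −0.01 at low iron, and 0.32, 0.24, 0.44 and 0.10 against −0.14, −0.01, 0.04 and −0.16 in *aft1*Δ. It read 0.07, 0.03 and 0.22 against −0.21, −0.41, −0.17 and −0.28 in *sef1*Δ, with no overlap, but its difference of −0.37 was not called (limma adjusted p = 0.104). The double mutant read 0.29, 0.17, 0.32 and 0.76 at high iron and 1.00, 0.68, 1.32 and 1.69 at low iron. Here only high-iron replicate 4 reached above low-iron replicate 2, and the rise was 1.73-fold (0.79 ± 0.144, limma adjusted p = 5.78e-05), with 0.83 from the other probe. With replicate number as a block, which the arrays of this strain support, 2 of the 46 genes were called higher in *sef1*Δ*aft1*Δ, *YHB1* and the unnamed SAKL0F02442g (0.76, limma adjusted p = 0.00176).

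Of the 46 genes, the 3 for iron storage and iron-sulfur handling were called lower in *sef1*Δ (background 2.54%). *CCC1* and *GRX4* were called lower in *sef1*Δ*aft1*Δ too (background 7.48%). *CCC1* (SAKL0H12716g, chromosome H), the vacuolar iron importer gene, read −0.71, −0.57, −0.60 and −0.33 in WT at high iron and −1.42, −2.04, −1.99 and −2.07 at low iron, and −0.63, −0.60, −0.64 and −0.89 against −1.47, −1.54, −1.46 and −1.74 in *aft1*Δ. In *sef1*Δ it read −0.13, −0.13 and −0.12 against −1.60, −1.34, −0.89 and −1.31, and in *sef1*Δ*aft1*Δ 0.03, −0.02, 0.10 and −0.34 against −0.66, −0.72, −0.59 and −0.90. No strain showed overlap between iron levels. Its falls were 2.23-fold (−1.16 ± 0.144, limma adjusted p = 5.79e-07) and 1.58-fold (−0.66 ± 0.134, limma adjusted p = 0.000203), and the difference between them, 0.50 ± 0.197, was not called (limma adjusted p = 0.0589). It belongs to a list of 7 named genes for vacuolar and mitochondrial metal transport. The choice required *CCC1* to fall in WT and *aft1*Δ, so it is not compared with the rest of the list. In *sef1*Δ 4 of the 7 were called higher, namely the vacuolar iron exporter genes *SMF3* and *FTH1*, the mitochondrial iron carrier gene *MRS4*, and the copper pump gene *CCC2*. Among regulators, *CTH1*, the mRNA decay factor gene, was called higher in both strains (3.57 in *sef1*Δ and 1.21 in *sef1*Δ*aft1*Δ), and *YAP5* was called higher in *sef1*Δ (2.00) and not in *sef1*Δ*aft1*Δ (0.47).

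*GRX4* (SAKL0H17710g, chromosome H), encoding a monothiol glutaredoxin that binds an iron-sulfur cluster, read 0.80 to 1.05 against −0.12 to 0.16 in WT and 0.48 to 0.56 against −0.69 to −0.46 in *aft1*Δ. It read 1.22, 1.48 and 1.35 against 0.63, 0.72, 0.59 and 0.98 in *sef1*Δ and 0.26, 0.83, 0.78 and 0.51 against −1.67, −0.60, −1.30 and −0.72 in *sef1*Δ*aft1*Δ. The fall in *sef1*Δ, −0.62 ± 0.165 (SE, limma adjusted p = 0.00955), was just past the threshold. It was −0.55 without high-iron replicate 2 and −0.57 without low-iron replicate 3, and −0.42 with the other probe, none of which was called. The fall in *sef1*Δ*aft1*Δ was −1.67 ± 0.152 (limma adjusted p = 5.13e-10), and the difference between the strains was −1.05 ± 0.224 (limma adjusted p = 0.000865).

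*ISA1* (SAKL0H25454g, chromosome H), whose product matures mitochondrial iron-sulfur proteins, read 0.86 to 1.04 against −0.22 to 0.31 in WT and −0.17 to 0.03 against −0.74 to −0.34 in *aft1*Δ. It fell in *sef1*Δ, from 0.89, 0.66 and 0.50 to −0.58, −0.50, −0.19 and −0.32. In *sef1*Δ*aft1*Δ, by contrast, the arrays read 0.22, 0.51, 0.58 and 0.37 at high iron and 0.38, 0.37, 0.40 and −0.08 at low iron and overlapped. The differences were −1.08 ± 0.131 (SE, limma adjusted p = 3.32e-07) and −0.15 ± 0.121 (limma adjusted p = 0.314), and they differed from each other by 0.93 ± 0.178 (limma adjusted p = 0.000278). With the other probe, the fall in *sef1*Δ was −0.68 and still called, and the difference between the strains was 0.46 and not called. Of 13 named genes for iron-sulfur cluster assembly, 2 were called lower in *sef1*Δ, *ISA1* and *GRX4*. The choice required both to fall in WT and *aft1*Δ, so they are not compared with the rest of the list. Of the same list, *GRX4* was lower in *sef1*Δ*aft1*Δ and *TAH18* and *NFS1* were higher. *PUG1*, a gene for porphyrin transport at the plasma membrane, fell in both strains, with differences of −1.11 in *sef1*Δ and −1.13 in *sef1*Δ*aft1*Δ (limma adjusted p = 0.000431 and 3.39e-05). In *sef1*Δ*aft1*Δ low-iron replicate 4 read −1.32, within the high-iron arrays (−1.34 to −1.04), and the other low-iron arrays read −2.79 to −2.54. The *sef1*Δ*aft1*Δ call was lost by the methods' t-test after Benjamini-Hochberg. With 6 named heme biosynthesis genes, of which *HEM3* was called lower in *sef1*Δ, the medians of the *PUG1* list were −0.48 and −0.01.

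Both sulfur genes among the 46 were called lower in *sef1*Δ (background 2.54%) and neither in *sef1*Δ*aft1*Δ (background 7.48%). *MET5* (SAKL0G18590g, chromosome G) encodes the subunit of sulfite reductase that holds siroheme and an iron-sulfur cluster. It read 0.42 to 0.78 against −0.48 to −0.31 in WT, 0.66 to 0.73 against 0.02 to 0.52 in *aft1*Δ, and 0.81, 0.65 and 0.48 against −0.74, −0.75, −0.78 and −0.48 in *sef1*Δ. Its *sef1*Δ*aft1*Δ arrays read −0.09, 0.22, −0.08 and 0.48 against −0.17, −0.32, 0.10 and 0.10, with overlap. The fall in *sef1*Δ was 2.52-fold (−1.33 ± 0.132, limma adjusted p = 6.05e-09), against −0.20 ± 0.122 (limma adjusted p = 0.185) in the double mutant. *YPR003C* differed by −1.14 and −0.23 (limma adjusted p = 4.46e-07 and 0.144). Among 9 named genes of sulfate assimilation and methionine synthesis, these 2 and *MET10*, for the partner subunit of Met5, were called lower in *sef1*Δ. *MET17* was called lower in *sef1*Δ*aft1*Δ. The choice required *MET5* and *YPR003C* to fall in WT and *aft1*Δ, so they are not compared with the rest of the list.

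Genes for proline and urea as nitrogen sources held some of the deepest falls. *DUR1,2* (SAKL0H10560g, chromosome H), encoding urea amidolyase, read 0.89, 0.76, 0.42 and 0.74 in WT at high iron and −0.62, −0.54, −0.55 and −0.74 at low iron, and 1.15, 1.19, 0.99 and 0.84 against −0.70, −0.93, −0.87 and −0.49 in *aft1*Δ. It read 0.50, 0.47 and 0.25 against −1.33, −1.39, −1.41 and −0.85 in *sef1*Δ and −0.02, 0.11, 0.09 and 0.71 against −2.27, −2.23, −2.41 and −2.33 in *sef1*Δ*aft1*Δ. In every strain the iron levels stood apart by more than the spread of the arrays. The falls were 3.14-fold (−1.65 ± 0.147, limma adjusted p = 7.67e-10) and 5.79-fold (−2.53 ± 0.136, limma adjusted p = 8.39e-15).

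*PUT1* (SAKL0H14960g, chromosome H), encoding mitochondrial proline oxidase, read 1.72 to 2.01 against 0.33 to 1.1 in WT and 1.5 to 1.80 against 0.45 to 1.02 in *aft1*Δ. It read 1.55, 1.16 and 1.24 against 0.02, 0.04, 0.31 and 0.16 in *sef1*Δ and 2.60, 2.26, 2.23 and 1.81 against 0.30, 0.20, 0.02 and 0.77 in *sef1*Δ*aft1*Δ. The low-iron levels of these 2 strains overlapped, while the high-iron level was higher in the double mutant. The falls were −1.19 ± 0.178 and −1.90 ± 0.165 (SE, limma adjusted p = 1.43e-05 and 1.7e-10). The proline permease gene *PUT4* was called lower in *sef1*Δ*aft1*Δ only (−0.73, limma adjusted p = 0.000292), with −0.58 and no call without high-iron replicate 1. Of 10 named genes for proline, urea, arginine, and allantoin use, 3 were lower in *sef1*Δ and 5 in *sef1*Δ*aft1*Δ, among them *PUT2*, the next enzyme gene after *PUT1*, in both. The arginase gene *CAR1* was higher in both, and the activator gene *PUT3* was higher in *sef1*Δ*aft1*Δ.

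Of the 46 genes, 6 were grouped under acetyl, acetate, and lactate use. The group counts the ammonium exporter gene *ATO3* only as a relative of the acetate permease gene *ADY2*. All 6 were called lower in *sef1*Δ (background 2.54%), and 3 of them in *sef1*Δ*aft1*Δ (background 7.48%). *JEN1* (SAKL0G14938g, chromosome G), the lactate and pyruvate importer gene, spread widely between replicates, with 1.75, 1.09 and 0.18 against −0.65, −0.68, −0.83 and −0.53 in *sef1*Δ. In *sef1*Δ*aft1*Δ it read −0.11, 0.58, 0.16 and −0.18 against 0.11, −0.59, −0.18 and −0.72, with overlap, where WT read 1.82 to 2.53 against 1.18 to 1.90 and *aft1*Δ 0.76 to 1.21 against −1.24 to −0.24. The differences were −1.68 ± 0.268 (SE, limma adjusted p = 3.11e-05) and −0.46 ± 0.248 (limma adjusted p = 0.136). The test of the difference between the strains gave 1.22 ± 0.365 (limma adjusted p = 0.0137), and 0.85 with an adjusted p of 0.085 without *sef1*Δ high-iron replicate 1, which held the highest value. The genes lower in both strains were *YAT1* and *CRC1*, for carnitine acetyltransferase and the mitochondrial carnitine carrier, and *MLS1*, for malate synthase of the glyoxylate cycle. Their differences were −0.73, −1.03, and −0.75 in *sef1*Δ, where *YAT1* was at −0.55 and not called without high-iron replicate 1, and −1.07, −0.70, and −1.03 in *sef1*Δ*aft1*Δ. The acetate permease gene *ADY2* and the related ammonium exporter gene *ATO3* fell in *sef1*Δ (−1.14 and −0.86) and read −0.23 and −0.16 in *sef1*Δ*aft1*Δ, not called. The partner of *MLS1* in the glyoxylate cycle, *ICL1*, was called in neither strain, and *POX1*, *FOX2*, *POT1*, and *FAA2* for fatty acid oxidation were called higher in *sef1*Δ*aft1*Δ.

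**Figure D4:**
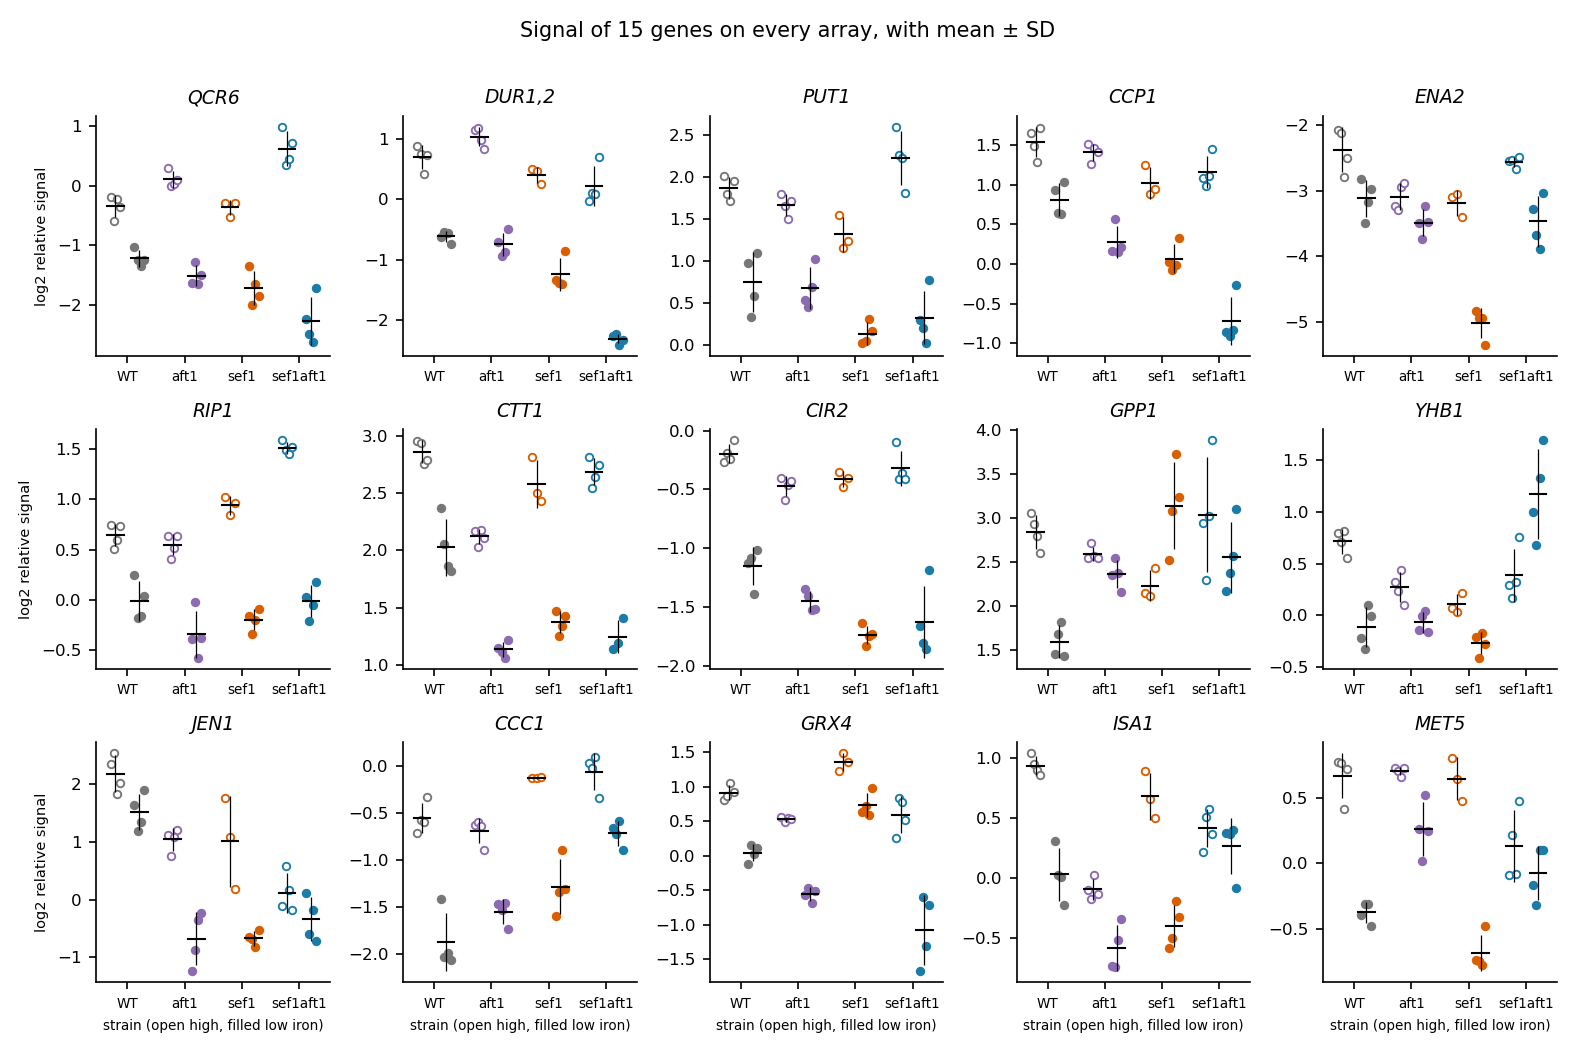
Normalized signal (log2, vertical axis) of 15 of the 46 genes on every array by strain (horizontal axis), open points at high iron and filled points at low iron, with black lines for the mean ± SD of 3 or 4 arrays. *QCR6*, *DUR1,2*, *RIP1*, *CCC1*, *CIR2*, *CTT1*, *CCP1*, *GRX4*, and *PUT1* show no overlap between iron levels in any strain. Over all genes, every low-iron array was lower for 15.5% in *sef1*Δ and 18.7% in *sef1*Δ*aft1*Δ. *YHB1* in *sef1*Δ*aft1*Δ and *GPP1* in *sef1*Δ rise at low iron.

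The remaining carriers and pumps were more mixed. *ENA2* (SAKL0H13222g, chromosome H), encoding a plasma-membrane sodium pump, read −2.80 to −2.07 against −3.49 to −2.83 in WT and −3.30 to −2.89 against −3.74 to −3.23 in *aft1*Δ. It fell 3.56-fold in *sef1*Δ, from −3.10, −3.05 and −3.41 to −4.84, −4.95, −4.94 and −5.35 (−1.83 ± 0.184, limma adjusted p = 8.33e-09). In *sef1*Δ*aft1*Δ it read −2.55, −2.53, −2.67 and −2.49 against −3.28, −3.68, −3.89 and −3.03, a smaller fall of −0.91 ± 0.171 (limma adjusted p = 7.91e-05). The oligopeptide transporter gene *OPT1* had differences of −0.82 and −1.58 (limma adjusted p = 0.0277 and 3.42e-06), and its call in *sef1*Δ was lost without high-iron replicate 1 or 2 or low-iron replicate 2 or 3, with −0.83 to −0.71. *YMC2*, a mitochondrial carrier gene, and *GDT1*, a putative Golgi cation transporter gene, were called lower in *sef1*Δ*aft1*Δ only (−0.73 and −1.03). The riboflavin transporter gene *MCH5* was called in neither strain, with −0.38 and −0.52.

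*GPP1* (SAKL0F08690g, chromosome F), the brightest of the 46 genes on average, was the only one called higher in *sef1*Δ. Its arrays read 3.05, 2.93, 2.79 and 2.60 in WT at high iron and 1.46, 1.68, 1.82 and 1.43 at low iron, and 2.54, 2.71, 2.57 and 2.55 against 2.35, 2.55, 2.38 and 2.16 in *aft1*Δ. They read 2.15, 2.11 and 2.43 against 2.52, 3.08, 3.72 and 3.23 in *sef1*Δ, with no overlap, and 2.94, 2.30, 3.02 and 3.88 against 2.17, 2.37, 2.57 and 3.10 in *sef1*Δ*aft1*Δ, with overlap. The rise of 0.90 ± 0.244 (SE, limma adjusted p = 0.0108) became 0.84 without high-iron replicate 2 and 0.71 without low-iron replicate 3, with adjusted p of 0.0603 and 0.0625, and 0.58 with the other probe. The other named genes were the xylitol dehydrogenase gene *XYL2* (−0.89 and −1.44) and the uncharacterized *YER156C* (−1.47 and −0.76), lower in both strains, and *FEN1*, lower in *sef1*Δ*aft1*Δ (−1.18). *THS1*, for threonyl-tRNA synthetase, the lectin-like *FLO9*, and the monopolin-like *MAM1* were called in neither, with differences of −0.56 to −0.16 in *sef1*Δ and −0.32 to −0.21 in *sef1*Δ*aft1*Δ.

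Of the 10 genes without a name, SAKL0C01672g was called lower in both strains (−0.60 and −0.78), but its *sef1*Δ call was lost without any 1 of the high-iron arrays or of low-iron replicates 1 to 3, at −0.66 to −0.54. SAKL0D10164g was lower in *sef1*Δ only (−0.73), and SAKL0C13090g (−1.22), SAKL0B00748g (−0.98), and SAKL0G07700g (−0.73) in *sef1*Δ*aft1*Δ only. The call of SAKL0G07700g was lost without high-iron replicate 1 or 4 or low-iron replicate 1 or 3, at −0.69 to −0.59. The other 5 were called lower in neither, and 2 of them had a positive difference in *sef1*Δ*aft1*Δ. SAKL0F02442g differed by 0.36 in *sef1*Δ and 0.76 in *sef1*Δ*aft1*Δ, neither called. SAKL0B12760g differed by −0.18 and 0.69, neither called, and was called higher in *sef1*Δ*aft1*Δ with the other probe (0.70). With the other probe, SAKL0H17424g was called lower in both strains (−1.38 and −0.93) and SAKL0G14113g in *sef1*Δ*aft1*Δ (−0.67). SAKL0B12760g read −4.32 on WT high-iron replicate 3, against −6.51 to −6.32 on the other WT high-iron arrays, and its other probe differed by −0.26 in WT. Of the 46 genes, 40 were well above background on all 31 arrays, and the exceptions were SAKL0A08624g, SAKL0B12760g, SAKL0G07700g, SAKL0G14113g, *PRX1*, and *MAM1*. SAKL0G07700g was above background on 4 high-iron arrays and 1 low-iron array of *sef1*Δ*aft1*Δ and on none of the *sef1*Δ low-iron arrays, so that its level there is only a bound. Low-iron arrays had slightly fewer probes above background (97.8% to 99.5%) than high-iron arrays (99% to 99.7%), and its part in the differences of dim genes was not tested.

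The response to iron was then compared between the 2 strains directly, since an offset between slides cancels in this test. The difference between *sef1*Δ*aft1*Δ and *sef1*Δ was called negative for 10 genes (background 8.90%) and positive for 10 (background 6.66%). Each group holds more genes than its background share of 46 would give, and the median over the 46 genes was −0.17, against −0.04 over all genes. Genes with a deeper fall in the double mutant were *QCR6* (−1.53 ± 0.233, limma adjusted p = 1.64e-05), *GRX4*, *CCP1* (−0.92), *DUR1,2* (−0.88), *PUT1* (−0.72), *FEN1* (−0.86), *GDT1* (−0.84), SAKL0C13090g (−0.86), and SAKL0B00748g (−1.03). *GPP1* (−1.39) was negative too, having risen in *sef1*Δ. Genes whose fall was smaller in the double mutant were *MET5* (1.13), *YPR003C* (0.90), *ISA1*, *SDH4* (0.60), *JEN1*, *ADY2* (0.91), *ENA2* (0.92), *YER156C* (0.71), and SAKL0D10164g (0.80), together with *YHB1* (1.16). The call of *PUT1* was lost, at −0.68 to −0.59, without *sef1*Δ high-iron replicate 2 or 3 or low-iron replicate 3, or *sef1*Δ*aft1*Δ high-iron replicate 1 or low-iron replicate 3. That of *SDH4* was lost, at 0.48 to 0.59, without *sef1*Δ high-iron replicate 1 or 2 or low-iron replicate 2, or *sef1*Δ*aft1*Δ high-iron replicate 1 or 4 or low-iron replicate 2. *ADY2* was lost without *sef1*Δ high-iron replicate 1, at 0.74, and *JEN1* likewise, at 0.85. With the other probe, the calls of SAKL0B00748g (−0.48), *GDT1* (−0.72), *PUT1* (−0.53), *JEN1* (1.01), *ISA1* (0.46), and *SDH4* (0.45) were lost.

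Levels of the 46 genes were also compared between *sef1*Δ*aft1*Δ and *sef1*Δ at each iron level, a contrast in which strain and slide cannot be told apart. At high iron 13 genes were called higher in *sef1*Δ*aft1*Δ (background 8.88%) and 3 lower (background 2.35%), with a median of 0.26 against 0.10 over all genes. The higher ones included *PUG1* (1.28), *QCR6* (0.98), *PUT1* (0.91), *CYB5* (0.86), and *MLS1* (0.73), and the lower ones were *OPT1* (−0.94), *JEN1* (−0.90), and *GRX4* (−0.75). At low iron 13 were called higher (background 12.6%) and 5 lower (background 7.42%), with a median of 0.29 against 0.05 over all genes. They included *ENA2* (1.55), *YHB1* (1.44), and *YER156C* (1.23) among the higher ones and *GRX4* (−1.80), *OPT1* (−1.70), *DUR1,2* (−1.06), *CCP1* (−0.78), and *FEN1* (−0.76) as the lower ones. The split depended on scaling, with 27.8% of the called genes lower here and 52.6% after quantile normalization.

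The 46 genes shared no position or level. They lay on all 8 chromosomes, from 2 on chromosome A to 10 on chromosome H, or 0.448% of the genes of chromosome A to 1.38% of those of chromosome B. Their mean normalized signal ran from −8.05 (SAKL0G07700g) to 2.55 (*GPP1*), with a median of −0.87 against −0.91 over all genes. All 46 had another probe, and 16 of the 19 genes called lower in both strains were called lower in both with it too, the exceptions being SAKL0C01672g, *CRC1*, and *GRX4*.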

How the data were processed

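The authors labeled cDNA with a fluorescent dye, hybridized it to custom arrays, and deposited the intensity of every spot on 31 arrays from Feature Extraction 10.5.1.1, background-subtracted and detrended, with marks for outlier and dim spots. The authors also deposited log2 values, scaled to each array's 75th percentile, on which the genes were chosen. All tests used the deposited intensity as log2, less the 75th percentile of all non-control probes on the array, with outlier spots left out. A gene was the part of the probe name before its first _ sign, with the probe of higher mean in the deposited log2 values and no cross-hybridization probes, which gave 5283 genes. Of these 5275 had another probe and 2421 a name.

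One model with a mean for each of 8 groups was fitted in limma 3.58.1 (R 4.3.3, with the package data.table at 1.17.8) and checked on simulated data. Plots used matplotlib 3.10.9 (Python 3.11.15, pandas 2.3.3). The members and lists were chosen with earlier results of these data known. Values on every array are given for the 8 genes with the largest mean fall among those called lower in both *sef1*Δ strains, for genes called higher, for the largest difference between these strains in each direction, and for *CCC1*, *GRX4*, *QCR6*, *RIP1*, *CTT1*, *CCP1*, *ISA1*, and *MET5*, 15 genes in all.

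Arrays with the same replicate number share a slide column. Their deviations at high and low iron correlated positively in each pair of WT (4 pairs, from 0.115 to 0.483), *aft1*Δ (from 0.121 to 0.30), and *sef1*Δ*aft1*Δ (from 0.246 to 0.533). In *sef1*Δ the correlations lay on both sides of 0 (3 pairs, from −0.093 to 0.226). Paired cultures and a shared slide column cannot be told apart here. Each slide is a strain, and WT was scanned in another session than the mutants. P-values measure the spread between these cultures of 1 strain each. Alternatives were other normalizations, background corrections, probes, thresholds, and tests, the deposited log2 values, a replicate block, and fits without each array. Normexp was run on the median signal (offset 50), since the scanner output held no mean signal. No sequence or coordinate of the genes was used here.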

Additional observations from a re-analysis of the deposited data

Results flagged for a closer look

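The iron response differed between *sef1*Δ*aft1*Δ and *sef1*Δ for 20 of the 46 genes by the interaction test (limma, adjusted p at most 0.05 and 1.5-fold). The double mutant minus *sef1*Δ gave −1.53 for *QCR6*, −1.39 for *GPP1*, −1.05 for *GRX4*, −1.03 for SAKL0B00748g, −0.92 for *CCP1*, −0.88 for *DUR1,2*, −0.86 for *FEN1*, −0.86 for SAKL0C13090g, −0.84 for *GDT1*, and −0.72 for *PUT1*. It gave 1.22 for *JEN1*, 1.16 for *YHB1*, 1.13 for *MET5*, 0.93 for *ISA1*, 0.92 for *ENA2*, 0.91 for *ADY2*, 0.90 for *YPR003C*, 0.80 for SAKL0D10164g, 0.71 for *YER156C*, and 0.60 for *SDH4*. Those of SAKL0B00748g, *GDT1*, *PUT1*, *JEN1*, *ISA1*, and *SDH4* were not called with the other probe.

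Single arrays that stood far from the other 3 of their group were found 9 times among the 15 genes with values on every array, each examined in the 7 groups of 4, where chance gives about 1 in 20. The normalized signal on the array that stood apart was −0.85 for *DUR1,2* and −0.48 for *MET5* on low-iron replicate 4 of *sef1*Δ. On low-iron replicate 4 of *sef1*Δ*aft1*Δ it was −0.26 for *CCP1* and −0.08 for *ISA1*. *CIR2* read −0.10 on high-iron replicate 1 of *sef1*Δ*aft1*Δ. *CCC1* read −1.42 on low-iron replicate 1 of WT and −0.89 on high-iron replicate 4 of *aft1*Δ, *CCP1* read 0.57 on low-iron replicate 2 of *aft1*Δ, and *MET5* read 0.42 on high-iron replicate 3 of WT.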

How the results depend on the processing

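Of the 109 calls of the 46 genes in the 5 comparisons, 101 were kept after quantile normalization, 106 after median scaling, 95 after normexp, all 109 with the deposited log2 values, 83 with the other probe, 84 by the methods' t-test after Benjamini-Hochberg (all but 4 unadjusted), and 53 at a fold of at least 2. No scaling moved the median of all genes by over 0.1. The 19 genes lower in both strains became 7 at a fold of at least 2, 12 by the methods' t-test after Benjamini-Hochberg, 16 to 21 under the other settings, and 15 to 19 with 1 array left out. The number of genes that met the choice ranged from 41 to 57 with 1 array left out. It was 51 from the spot intensities, holding all 46, and 53 with the other probe, which shared 28 of the 46. At a fold of at least 2, 16 genes were lower and 0 higher in *sef1*Δ, 17 lower and 0 higher in *sef1*Δ*aft1*Δ, 4 negative and 3 positive in the difference between the strains, 0 lower and 3 higher in *sef1*Δ*aft1*Δ than in *sef1*Δ at high iron, and 3 lower and 7 higher at low iron. With no fold threshold, 5 were lower at high iron, and 9 lower and 20 higher at low iron. At an unadjusted limma p under 0.05, 24 of the 46 genes and 2356 of all 5283 differed at high iron. At low iron, 30 of the 46 and 2992 of all 5283 did. Shares over all genes are not given for the counts at these 2 fold settings, and nothing about the 46 genes is read from them. The single gene higher in *sef1*Δ became 0 with the other probe and by the t-test after adjustment. The single gene higher in *sef1*Δ*aft1*Δ became 2 after quantile normalization, with the other probe, with the mean of the probes, with the compared groups only, with the replicate block, and by the unadjusted t-test, and 0 by the adjusted t-test. The 3 lower at high iron became 1 with normexp, the other probe, and the adjusted t-test, and the 5 lower at low iron became 10 after quantile normalization and 8 with normexp. Under quantile normalization SAKL0G07700g turned to −0.32 and SAKL0G14113g to −0.90 at low iron, and the cause was not tested. The replicate block kept all 75 calls it could be fitted for and changed no other count by over 1.5 times. A strain lies on 1 slide, so no paired analysis was possible between strains.

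With 1 array left out at a time, 24 to 28 genes were lower and 0 to 1 higher in *sef1*Δ (0 without high-iron replicate 2 or low-iron replicate 3), and 25 to 30 lower and 1 to 2 higher in *sef1*Δ*aft1*Δ (2 without high-iron replicate 2 or low-iron replicate 1). The difference between the strains gave 9 to 12 negative and 7 to 11 positive. Levels gave 2 to 4 lower and 12 to 14 higher at high iron, and 5 to 8 lower and 12 to 15 higher at low iron (8 without *sef1*Δ*aft1*Δ low-iron replicate 4). Precision is limited by 3 or 4 arrays a group and, for 6 dim genes, by signal near background.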
